A study of Rattus norvegicus with 18 samples.

Results

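The 8 genes described here, Postn, Tnc, Fn1, Aebp1, Thbs4, Spon1, Sdc1 and Crispld2, encode matricellular, matrix-binding and cell adhesion proteins that were followed in the healing rat femur. They were chosen by name, with earlier results of these same arrays known, and 17 of 8740 probe sets of the array were annotated to them. Where a gene had several probe sets, the leading one was selected on its mean signal over the 18 arrays, the brightest standing for the gene. The choice of the genes thus drew on the readout itself, so their changes with time and age are given as descriptions, and how many of them passed a test is no independent evidence about such genes.

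The arrays were the study's series 3, with 18 Affymetrix GeneChip arrays for the rat, 1 for each of 3 ages at 6 times. Intact female Sprague-Dawley rats were 6 weeks (young), 26 weeks (adult) or 52 weeks (older) of age at fracture, and were sampled without fracture (0 time) or at 0.4 (3 days), 1, 2, 4 or 6 weeks after a mid-shaft fracture of the femur held by an intramedullary rod. Age and time after fracture were the labelled factors. RNA of 2 rats was pooled for each array, and it came from a segment of femur around the fracture, with callus, cortical bone and marrow together. A single array thus stood for each age and time, so the error used below is the spread left after the age and time terms of each model. In such tissue, fewer cells of a type and less RNA per cell cannot be told apart.

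Matricellular proteins are secreted into the matrix but act mainly on cells, by binding integrins, surface proteoglycans, collagens and growth factors, rather than by bearing load. Many are sparse in resting adult tissue and abundant in embryos and in wounds. In a fracture callus, periosteal and mesenchymal cells first lay down a provisional matrix rich in fibronectin, which is later replaced by cartilage and bone.

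The signals are in the arbitrary units of the array software, scaled to an average of 500 per array, and they were tested as log2 after signals below 20 were set to 20. A change was called when limma's adjusted p, over all 8740 probe sets, was under 0.05. The median signal per array was 150.9 to 188.6. The young 4- and 6-week arrays stood apart in RNA quality: the ratio of the 3′ to the 5′ probe set of Gapdh was 3.485 and 6.565 on them, and 1.152 to 1.829 on the other 16 arrays. The tests over time, over all later times and against the own control are given below with and without them. As a check of the labelled tissue, the summed signal of 6 measured cartilage markers was 299 to 2616 at 0 time and 21927 to 25999 at 2 weeks, whereas that of 12 skeletal muscle markers was 139625 to 252496 at 0 time and 40637 to 46462 at 0.4 week.

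Promoter sequences from RefSeq were held for 6 of the 8 genes (GRCr8 build), all but Fn1 and Spon1. The 120 bases before the start site are shown for the 3 matched genes whose 0 time signals differed most between ages, and for Thbs4, whose 0 time signals showed no such order. Capitals mark a TATA box (TATAAA) or a GC box (GGGCGG, or CCGCCC on the other strand), and each sequence runs 5′ to 3′ on the strand of its gene. The Postn window is chr2:140677941-140678060 on the plus strand, the Aebp1 window chr14:84952734-84952853 on the plus strand, the Sdc1 window chr6:37281921-37282040 on the plus strand and the Thbs4 window chr2:25760346-25760465 on the minus strand. The start sites used for Postn and Aebp1 lie inside the genes' annotated spans, and those of Sdc1 and Thbs4 at the ends of theirs. The start sites used for Tnc and Crispld2, whose windows are not shown, also lie inside. The Crispld2 window begins at chr19:64978836 on the plus strand, in a gene annotated from 64961764, so it does not cover the bases before the annotated start.
Postn: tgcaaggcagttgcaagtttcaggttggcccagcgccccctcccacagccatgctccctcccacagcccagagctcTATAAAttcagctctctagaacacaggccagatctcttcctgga
Aebp1: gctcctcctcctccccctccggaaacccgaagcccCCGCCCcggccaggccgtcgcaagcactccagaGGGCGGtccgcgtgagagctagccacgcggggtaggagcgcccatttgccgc
Sdc1: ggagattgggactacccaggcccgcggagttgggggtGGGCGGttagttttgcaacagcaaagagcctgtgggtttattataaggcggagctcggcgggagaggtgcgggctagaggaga
Thbs4: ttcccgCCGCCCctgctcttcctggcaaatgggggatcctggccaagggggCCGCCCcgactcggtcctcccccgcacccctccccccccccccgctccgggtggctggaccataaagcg
The exact letters TATAAA were found in Postn alone of the 6 windows, 44 bases before the start, and in 6.7% of all 33469 promoters of the table. Other forms of a TATA box were not searched for, such as the letters TATATAA in the Tnc window. GC boxes stood in Aebp1, Sdc1 and Thbs4, and in 23.7% of all promoters. The letters of an AP-1 site (TGANTCA, 3.0% of promoters), a TEAD site (GGAATG, 6.0%) and a Runx core (TGTGGT, 6.8%) occurred on neither strand of the 6 windows. A Smad box (GTCTG, 22.7%) occurred in Tnc. These matches are a description of letters in a window.

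After fracture, 6 of the 8 genes changed over the 5 later times by the F test of limma, all with their largest change upwards. They were Tnc, Fn1, Aebp1, Spon1, Sdc1 and Crispld2, with adjusted p values of 0.00599 to 0.0405, against 26.4% of all probe sets called. With the mean of a gene's probe sets the count was 5. Among single probe sets that do not lead, Sdc1 X60651mRNA_s_at (adjusted p = 0.217) and Tnc U09401_s_at (0.117) and U15550_at (0.0667) did not pass. Fn1 X05831cds_at (F test adjusted p = 0.101) and Aebp1 rc_AI638965_at (0.0694) did not pass either. Postn (adjusted p = 0.123) and Thbs4 (adjusted p = 0.306) were not called. At 1 week the signals of all 3 ages lay above all 3 controls in 8 of 8 genes, as they did in 17.2% of all probe sets. The members' median log2 change went from 1.90 at the first of these times to 2.51 a week after fracture, then to 2.30, 1.5 and 1.43 at the later ones, whereas the median over all probe sets lay between -0.13 and -0.04.

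**Figure D1:**
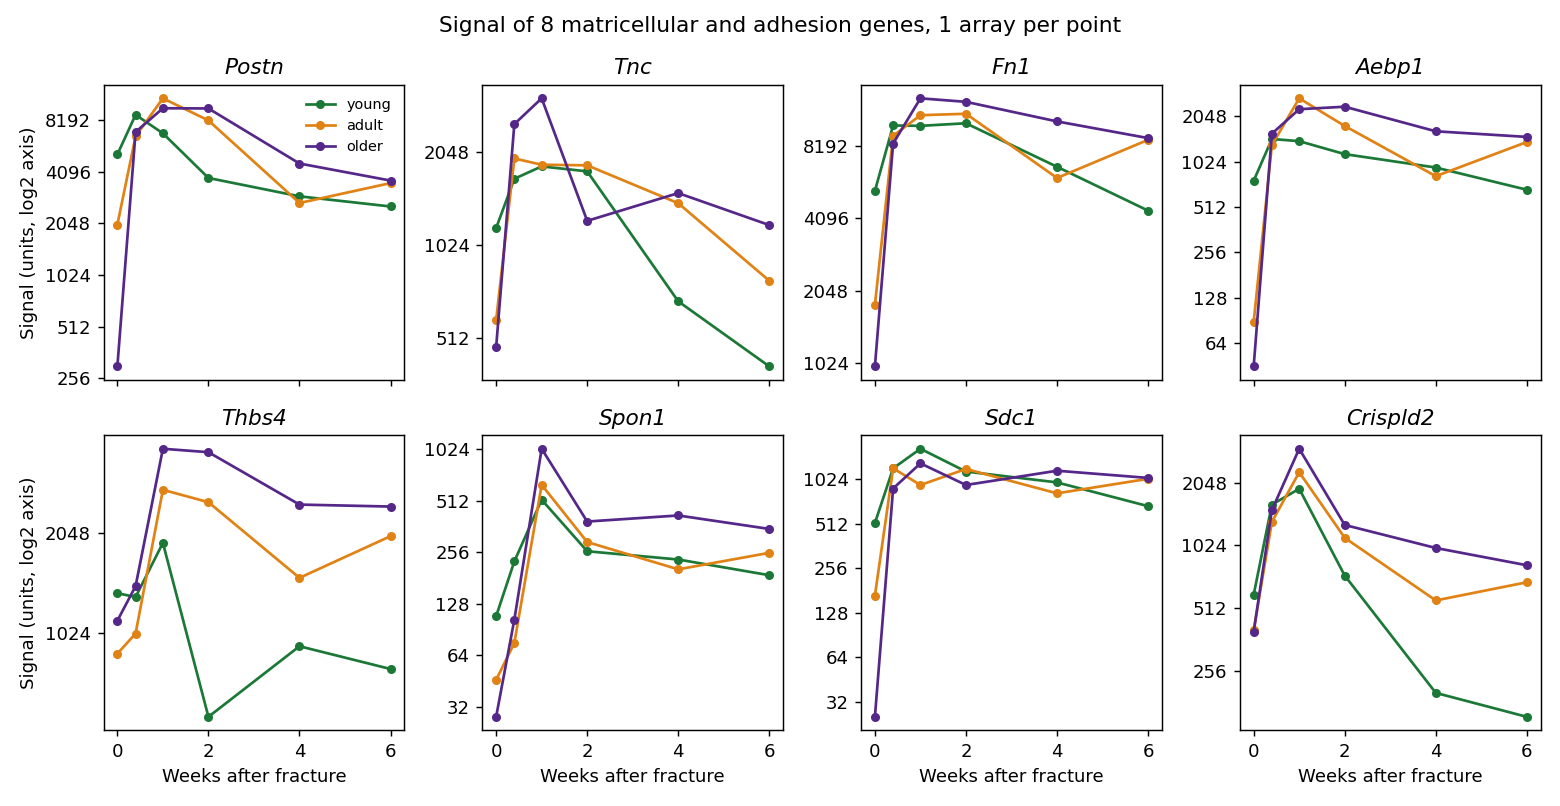
Signal of the leading probe set of each gene (log2 axis, arbitrary units) against weeks after fracture, with 1 array per point and a line for each age. In all 8 genes the 3 points at 1 week lie above the 3 points at 0 time, and at 6 weeks the young point is the lowest.

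The secreted matricellular proteins come first. Periostin (Postn), made by the periosteum and by fibroblasts, binds collagen and integrins. In young rats its signal was 5163 before fracture, 8790.2 on day 3, 6854 after 1 week, 3765 after 2 weeks, 2943 after 4 weeks and 2568 after 6 weeks. In adult rats it was 2012 before fracture, 6585 on day 3, 10961 after 1 week, 8149 after 2 weeks, 2690.5 after 4 weeks and 3515 after 6 weeks. In older rats it was 300.3 before fracture, 6978 on day 3, 9596 after 1 week, 9569.9 after 2 weeks, 4571 after 4 weeks and 3636 after 6 weeks. The 3 ages stood 17.2-fold apart at 0 time and within 1.34-fold of each other at 0.4 week, with the highest control in young and the lowest in older rats. The young rats were back below their own control from 2 weeks on, while all 5 later arrays of the adult and of the older rats stayed above theirs. With the ages pooled, Postn rose by 2.34 ± 0.79 on the log2 scale (SE, limma adjusted p = 0.0436) at 0.4 week and by 2.62 ± 0.79 (limma adjusted p = 0.0259) at 1 week.

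Tenascin C (Tnc) is a hexameric glycoprotein of wounds and of forming bone that loosens the hold of cells on fibronectin. In young rats the Tnc signal was 1164 before fracture, 1681 on day 3, 1843 after 1 week, 1776 after 2 weeks, 674 after 4 weeks and 415 after 6 weeks. The adult rats gave 586 before fracture, 1955 on day 3, 1866 after 1 week, 1858 after 2 weeks, 1400.4 after 4 weeks and 786 after 6 weeks. The older rats gave 479 before fracture, 2527 on day 3, 3062 after 1 week, 1228 after 2 weeks, 1510.3 after 4 weeks and 1189.8 after 6 weeks. The young rats were below their control at 4 and 6 weeks and ended at 0.356 of it, whereas the adult rats ended at 1.34 and the older rats at 2.48 times theirs. The log2 change with ages pooled was 1.56 ± 0.44 at 0.4 week and 1.67 ± 0.44 at 1 week (limma adjusted p = 0.0222 and 0.0154), and 0.08 ± 0.44 at 6 weeks (limma adjusted p = 0.981).

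Thrombospondin 4 (Thbs4), known from tendon, muscle and nerve, binds collagens and other matrix proteins. The Thbs4 signal of young rats was 1347 before fracture, 1312 on day 3, 1908 after 1 week, 573 after 2 weeks, 933 after 4 weeks and 797 after 6 weeks. Adult rats had 887 before fracture, 1019 on day 3, 2756 after 1 week, 2529.6 after 2 weeks, 1498 after 4 weeks and 1999.8 after 6 weeks. Older rats had 1114 before fracture, 1414 on day 3, 3662 after 1 week, 3576 after 2 weeks, 2488 after 4 weeks and 2454 after 6 weeks. Thbs4 stood apart from the other 7 genes at 0.4 week, when its signals, 1019 to 1414, were close to the controls. Its log2 change was 0.17 ± 0.47 at 0.4 week (limma adjusted p = 0.840) and 1.29 ± 0.47 at 1 week (limma adjusted p = 0.0545). The older signal was the highest of the 3 ages at each later time, and the young signal was the lowest from 1 week on.

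Spondin 1 (Spon1), or F-spondin, is a matrix protein with thrombospondin repeats first known from the floor plate of the embryonic spinal cord. In young rats its signal was 108 before fracture, 227 on day 3, 520.2 after 1 week, 259.8 after 2 weeks, 232 after 4 weeks and 188 after 6 weeks. In the adult rats the corresponding signals were 45.9 before fracture, 75.5 on day 3, 636 after 1 week, 294 after 2 weeks, 204 after 4 weeks and 254 after 6 weeks. In the older rats they were 27.9 before fracture, 103 on day 3, 1034 after 1 week, 388 after 2 weeks, 421 after 4 weeks and 351 after 6 weeks. All 3 ages peaked at 1 week, and the 1 week signals did not overlap with those of any other time. The older rats peaked highest, from the lowest control. Spon1 had the lowest F test adjusted p of the 8 genes, 0.00599, and rose by 3.76 ± 0.52 on the log2 scale at 1 week (limma adjusted p = 0.00123). At 0.4 week it was 1.22 ± 0.52 (limma adjusted p = 0.0974), with the young and older arrays at more than double their controls and the adult array at 75.5 against 45.9.

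Fibronectin (Fn1) is the main cell-binding glycoprotein of the provisional matrix, and it is held by integrins and syndecans. The Fn1 signal in young rats was 5332 before fracture, 9979 on day 3, 9944 after 1 week, 10192 after 2 weeks, 6716 after 4 weeks and 4413 after 6 weeks. In adult rats it was 1789 before fracture, 9037 on day 3, 11012 after 1 week, 11163 after 2 weeks, 6035 after 4 weeks and 8696 after 6 weeks. For the older rats it was 992 before fracture, 8394 on day 3, 12943 after 1 week, 12516 after 2 weeks, 10374 after 4 weeks and 8843 after 6 weeks. At 0.4 week the 3 ages were within 1.19-fold of each other, from controls that were 5.38-fold apart. The 6 signals at 1 and 2 weeks ranged from 9944 to 12943. With ages pooled, Fn1 rose by 2.41 ± 0.50 at 1 week (limma adjusted p = 0.00553), equal within the SE to the change at 2 weeks, 2.41 ± 0.50 (limma adjusted p = 0.0120). By 6 weeks it kept 77.9% of its peak signal in adults and 68.3% in the older rats, against 43.3% in the young.

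Aebp1, which encodes the collagen-binding protein ACLP of fibroblasts and smooth muscle, had the steepest age difference in the controls after Postn and Sdc1. Its signal in young rats was 764 before fracture, 1448 on day 3, 1401 after 1 week, 1149 after 2 weeks, 936 after 4 weeks and 667 after 6 weeks. In the adults it was 88.3 before fracture, 1319.9 on day 3, 2695 after 1 week, 1767 after 2 weeks, 821 after 4 weeks and 1383 after 6 weeks. In the older rats it was 44.9 before fracture, 1570.3 on day 3, 2282 after 1 week, 2371 after 2 weeks, 1629 after 4 weeks and 1495 after 6 weeks. The 3 arrays at 0.4 week lay between 1319.9 and 1570.3, although the controls ranged from 44.9 to 764.5. Aebp1 rose by 3.82 ± 0.83 on the log2 scale at 1 week (limma adjusted p = 0.00654), and by 2.72 with the mean of its 3 probe sets. The adult and older rats peaked at 30.5 and 52.8 times their controls, against 1.90 times in young rats.

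Crispld2, a secreted protein with cysteine-rich and LCCL domains that binds glycosaminoglycans and endotoxin, had the most transient course. Its young signals were 594 before fracture, 1606 on day 3, 1912 after 1 week, 734 after 2 weeks, 201 after 4 weeks and 155 after 6 weeks. The adult signals were 401 before fracture, 1327 on day 3, 2294 after 1 week, 1113 after 2 weeks, 558 after 4 weeks and 682 after 6 weeks. The older signals were 394 before fracture, 1511 on day 3, 2973 after 1 week, 1283 after 2 weeks, 995 after 4 weeks and 823 after 6 weeks. The 3 controls differed by only 1.51-fold, and all 3 ages peaked at 1 week. The log2 change was 2.37 ± 0.52 at 1 week (limma adjusted p = 0.00667) and -0.04 ± 0.52 at 6 weeks (limma adjusted p = 1.0). At 6 weeks the young array had 8.1% of its peak signal, the adult 29.7% and the older 27.7%.

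Syndecan 1 (Sdc1) is a cell surface heparan sulfate proteoglycan that binds fibronectin, tenascins and growth factors. Young rats had Sdc1 signals of 517 before fracture, 1214 on day 3, 1648 after 1 week, 1155 after 2 weeks, 975 after 4 weeks and 673 after 6 weeks. Those of the adult rats were 167 before fracture, 1215 on day 3, 936 after 1 week, 1202 after 2 weeks, 822 after 4 weeks and 1031 after 6 weeks. Those of the older rats were 25.2 before fracture, 887 on day 3, 1312 after 1 week, 937 after 2 weeks, 1169.9 after 4 weeks and 1046 after 6 weeks. Unlike the transient Crispld2, Sdc1 kept its signal on the leading probe set, with later arrays at 673 to 1648 and every one of them above every control. That was not so on its second probe set, given below. Its log2 change was 3.08 ± 0.73 at 0.4 week (limma adjusted p = 0.0100) and 2.92 ± 0.73 at 4 weeks (limma adjusted p = 0.0468). The older control, 25.2, was just above the floor of 20.

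**Figure D2:**
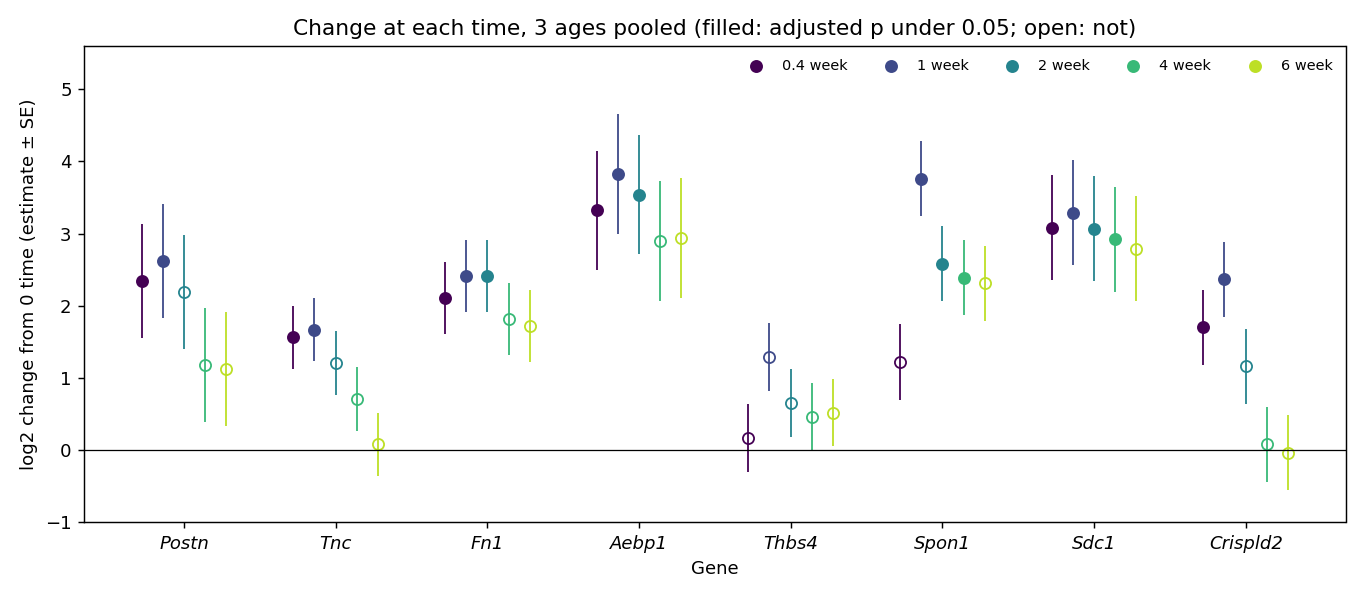
Change of each gene from 0 time (log2 estimate with its SE as a bar, 3 ages pooled) at the 5 later times. Filled points had a limma adjusted p under 0.05, and they lie mostly at 0.4, 1 and 2 weeks, with Spon1 and Sdc1 alone filled at 4 weeks.

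Counted by time, 6 of the 8 genes rose at 0.4 week (all but Thbs4 and Spon1), against 14.1% of all probe sets called higher. At 1 week 7 rose, all but Thbs4, against 14.6%. At 2 weeks Fn1, Aebp1, Spon1 and Sdc1 rose, against 9.49%. Spon1 and Sdc1 rose at 4 weeks, against 3.31%. At 6 weeks limma called 0 of the 8, against 0.561%, and 4 had an unadjusted p under 0.05, as did 10.2% of all probe sets in that direction. Without the adult arrays, or without the older arrays, limma called 0 of the 8 at every time and by the F test (1 and 4 genes at an unadjusted p under 0.05 in the F test), while without the young arrays it called 7, 8, 8, 7 and 6 at the 5 times in order. Without the young 4- and 6-week arrays alone, 5 genes passed the F test, Aebp1 no longer among them (adjusted p = 0.0583), and Spon1 alone was called at 4 weeks. The shares of all probe sets called in these reduced fits are not given, so the shifts in count cannot be read as particular to the members.

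The peaks came early at all 3 ages. Among young and also among adult rats the peak fell on day 3 in 2 genes, at 1 week in 5 and at 2 weeks in 1. In older rats 7 peaked at 1 week and 1 (Aebp1) at 2 weeks. The median height of the peak over the own control was 1.90-fold for the young, 5.98-fold for the adult and 22.5-fold for the older rats. The peaks themselves lay between 1.25-fold (Postn) and 1.99-fold (Spon1) apart between the ages. The controls were further apart in 6 of the genes, though not in Thbs4 (1.52-fold, against 1.92-fold at the peaks) or Crispld2 (1.51-fold, against 1.56-fold). Their signals were highest for young and lowest for older rats, with adult rats between, in 7 of the 8 genes, all but Thbs4, as in 13.5% of all probe sets. The young control was 20.5-fold above the older one in Sdc1, 17.2-fold in Postn, 17.0-fold in Aebp1, 5.38-fold in Fn1, 3.88-fold in Spon1, 2.43-fold in Tnc and 1.51-fold in Crispld2. For Thbs4 it was 1.21-fold, with the adult control the lowest.

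Marker genes of some other cells in the bone moved with that order. The summed signal of 7 measured tendon and fibroblast markers (of 11 listed) at 0 time was 39922 for the young, 13863 for the adult and 4601 for the older rats, and that of 7 osteoblast markers (of 10) was 121489, 54823 and 27293. The 12 skeletal muscle markers (of 13) went otherwise, at 139625, 252496 and 217790. The part of these cells in the members' 0 time signals was not tested. Each control is a single array, so the order at 0 time has no replicate check.

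**Figure D3:**
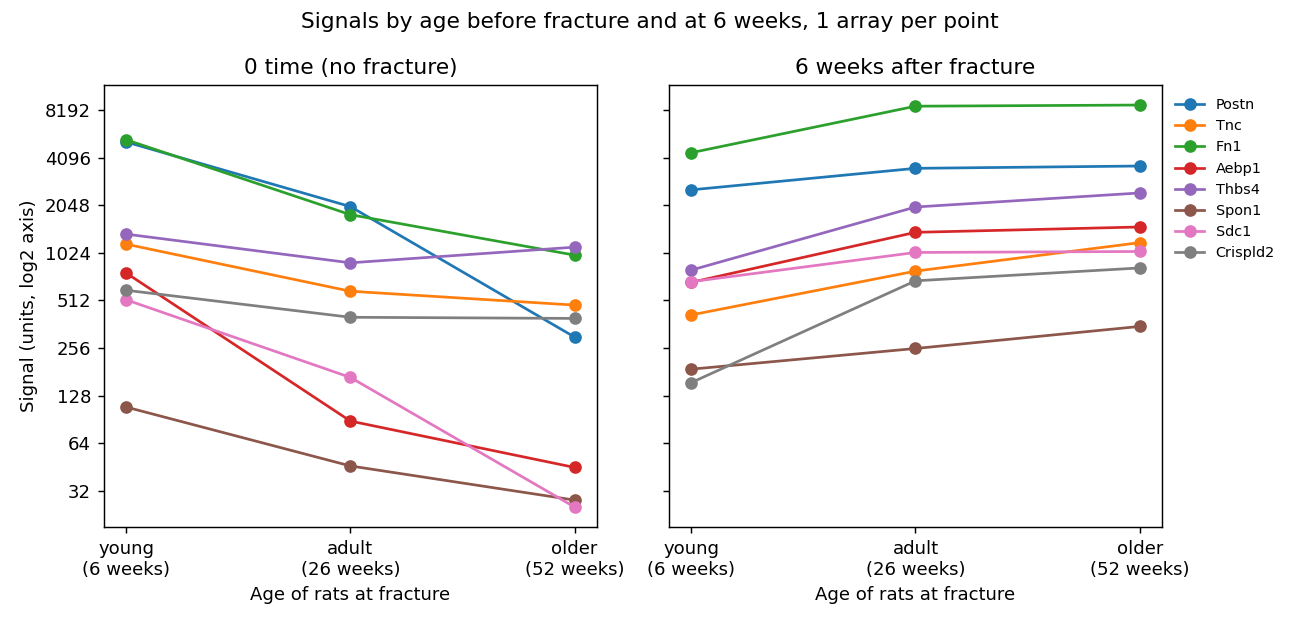
Signals of the 8 genes (log2 axis, arbitrary units) in young, adult and older rats at 0 time and at 6 weeks after fracture, 1 array per point. At 0 time 7 of the 8 lines go down with age, and at 6 weeks all 8 go up.

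At 6 weeks the order was the opposite, with young below adult and adult below older in 8 of 8 genes, as in 18.3% of all probe sets. The older signal was 5.32-fold above the young one in Crispld2, 3.08-fold in Thbs4, 2.87-fold in Tnc, 2.24-fold in Aebp1, 2.00-fold in Fn1, 1.87-fold in Spon1, 1.55-fold in Sdc1 and 1.42-fold in Postn. Adult and older rats stood close together in Postn (3515 and 3636), Fn1 (8696 and 8843) and Sdc1 (1031 and 1046). In young rats 6 of the 8 genes were below their own control at 6 weeks, against 0 for the adult and 0 for the older rats. The share of all probe sets below their own control at each age is not given, so these counts cannot be read as particular to the members. The young 6-week array is the one with the highest Gapdh 3′ to 5′ ratio, and the part of RNA quality in this order was not tested. Marker sums of other cells went both ways. From young to adult to older rats at 6 weeks, the summed signal of the tendon and fibroblast markers was 31992, 40599 and 43024. That of 7 endothelial and mural markers (of 10) was 2895, 5970 and 5729, and that of the cartilage markers 1695, 5785 and 4862. Both were lowest in young and highest in adult rats. The osteoblast markers, which had moved with the 0 time order, ran against the members' order here, at 115449, 112348 and 91906. That of 3 granulocyte markers (of 8) also ran the other way, at 27339, 8544 and 5218, as did 3 platelet markers (of 6), at 8287, 3814 and 2133. The erythroid markers, at 92399, 66497 and 46552, did so too. Their part in the order was not tested.

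Older and young rats were compared over all 5 later times, with time as a term. Limma called 0 of the 8 genes, and 0.0% of all probe sets, while 5 of the 8 had an unadjusted p under 0.05, all higher in older rats, as did 5.90% of all probe sets. Without the young 4- and 6-week arrays limma again called 0, and 3 members had an unadjusted p under 0.05. The members' median difference was 0.61 on the log2 scale. It was largest in Thbs4, 1.35 ± 0.32 (limma adjusted p = 0.192), and in Crispld2, 1.21 ± 0.36 (limma adjusted p = 0.247). Thbs4 and Spon1 were picked by the study itself among genes raised more in older rats, from data that included these arrays, so their difference is not independent evidence. Spon1 had 0.44 ± 0.31 (limma adjusted p = 0.618). Sdc1 was at -0.04 ± 0.20 (limma adjusted p = 1.0).

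The difference was then taken separately for 0.4 to 2 weeks and for 4 and 6 weeks. Late after fracture Crispld2 was higher in older than in young rats, by 2.36 ± 0.25 on the log2 scale (limma adjusted p = 0.0102), or 5.13-fold, the 1 call among the 8 leading probe sets against 1.5% of all probe sets. The older signals were 995 and 823 at 4 and 6 weeks, and the young ones 201 and 155, with no overlap. Tnc had 1.34 ± 0.32 (limma adjusted p = 0.0874) and Thbs4 1.52 ± 0.58 (limma adjusted p = 0.251). Early after fracture the Crispld2 difference was 0.45 ± 0.20 (limma adjusted p = 0.790). The late minus early difference itself was 1.91 ± 0.32 in Crispld2 (limma adjusted p = 0.0982), so a change of the age effect with time was not called, and limma called 0 of the 8 genes in that test, against 0.252% of all probe sets (2 members at an unadjusted p under 0.05, as 10.7% of all probe sets were in either direction). The Crispld2 call rests on the young 4- and 6-week arrays, without which there is no late comparison with young rats, and it was lost without the adult arrays (limma adjusted p = 0.118 at the same difference).

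**Figure D4:**
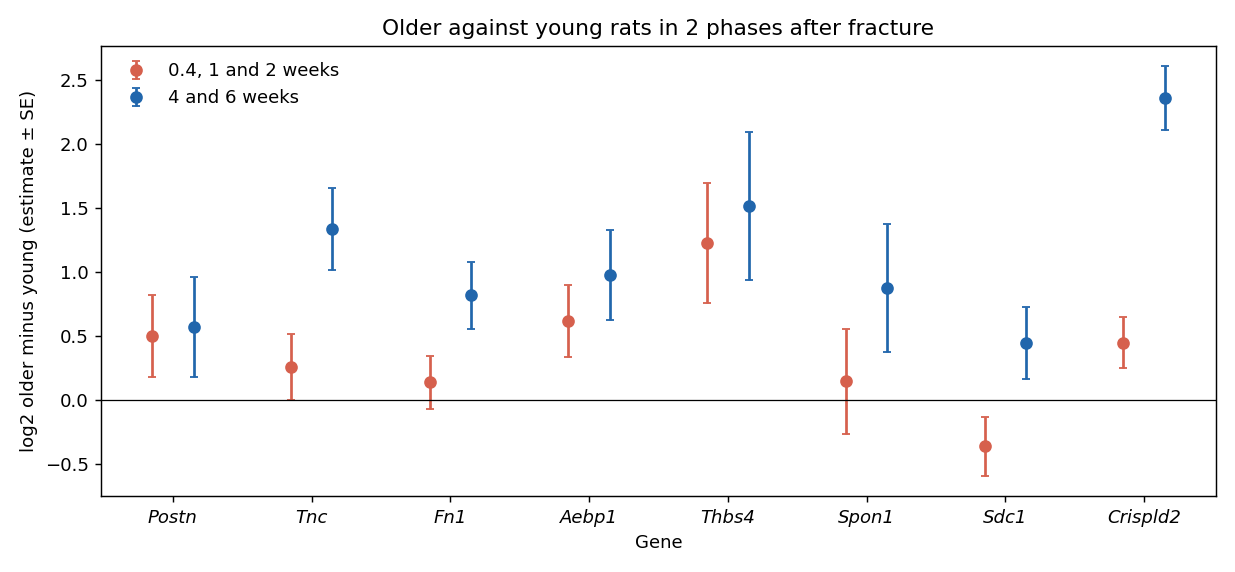
Difference between older and young rats (log2 estimate, bars are the SE) for 0.4, 1 and 2 weeks together and for 4 and 6 weeks together. The late difference of Crispld2, 2.36, is the highest point, and its early difference is 0.45.

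Next, each age was set against its own unfractured control. The change was larger in older than in young rats for Aebp1, by 4.86 ± 0.51 on the log2 scale (limma adjusted p = 0.000398), for Postn, by 4.63 ± 0.56 (limma adjusted p = 0.00105), for Sdc1, by 4.32 ± 0.50 (limma adjusted p = 0.000791), and for Fn1, by 2.84 ± 0.45 (limma adjusted p = 0.00559). These 4 calls stand against 3.57% of all probe sets. The other 4 genes had differences of 1.62 in Thbs4, 1.81 in Crispld2, 1.98 in Tnc and 2.39 in Spon1, with limma adjusted p values of 0.108 to 0.290. The contrast rests on 1 control array per age, so it repeats the 0 time order given above and its error does not cover a second control. The Fn1 call was lost without the adult arrays (limma adjusted p = 0.0516). Without the young 4- and 6-week arrays 4 genes were called. The sizes for Aebp1 and Sdc1 lean on older controls near the floor, and with an offset of 50 they were 3.84 and 2.88.

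The other probe sets of Tnc, Fn1, Aebp1 and Sdc1 bear on these values. For Tnc, probe sets U15550_at and U09401_s_at followed the leading one over the 18 arrays (Pearson r of 0.886 and 0.926) and showed the same 0 time order more steeply, from 1119 in young to 107.9 in older rats for the former. For Aebp1 the other 2 probe sets gave older over young folds of 2.96 and 2.92 at 6 weeks, against 2.24 in the leading one. Their 0 time difference was smaller, with young over older folds of 3.96 and 2.18 against 17.0, so the size of the Aebp1 control difference rests on the leading probe set. Fn1 differed more. Its 2 U82612cds probe sets had r of 0.768 and 0.839, and their 0 time signals ranged from 88.5 to 226.4 with 1.28- to 2.31-fold between young and older rats, against 5.38-fold in the leading one. The dim M28259cds_at and X05831cds_at had r of 0.646 and 0.381, and the opposite 0 time order to the leading one. From young to adult to older their controls were 18.3, 19.0 and 23.8, and 12.3, 21.8 and 95.8, many of them near or below the floor.

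The second Sdc1 probe set, X60651mRNA_s_at, gave 227 for the young, 185 for the adult and 289 for the older control, so the 0 time order of Sdc1 was seen by 1 of its 2 probe sets. Its r with the leading one was 0.477, and its 1 week change was 1.18 against 3.29. Its young signals at 4 and 6 weeks, 224.4 and 160.3, were below its young control, and its pooled 6 week change was 0.34 (limma adjusted p = 0.693). Late after fracture this probe set (1.34, limma adjusted p = 0.0220), Aebp1 rc_AI638965_at (1.54, limma adjusted p = 0.00948) and Fn1 U82612cds_g_at (2.52, limma adjusted p = 0.0396) were called higher in older than in young rats, although the leading ones were not. With the mean of all probe sets of a gene in place of the brightest, the older minus young change from the own control was 2.13 for Sdc1 (limma adjusted p = 0.0821) and 1.13 for Fn1 (limma adjusted p = 0.474), and neither was called, while Tnc was, at 4.05 (limma adjusted p = 0.0453).

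**Figure D5:**
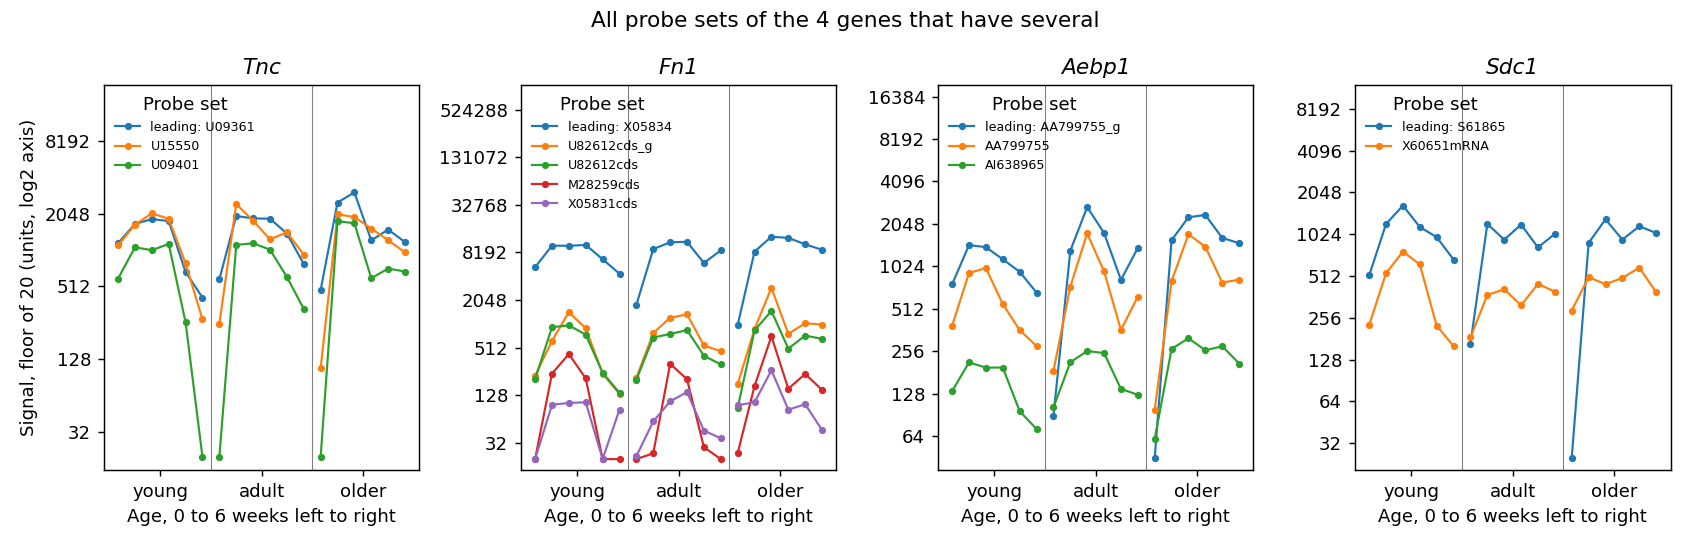
Signals of every probe set of Tnc, Fn1, Aebp1 and Sdc1 (log2 axis, signals below 20 drawn at 20), with the 6 times of each age from left to right. At 0 time the 3 Tnc probe sets and the 3 Aebp1 probe sets all have the young control highest, by different amounts, while the leading Sdc1 probe set starts at 25.2 in older rats and the second one at 289.

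Among themselves, Fn1 and Aebp1 were the most alike in log2 signal over the 18 arrays (r = 0.983), and Thbs4 and Sdc1 the least (r = 0.319). These correlations are descriptions, since all arrays share 1 time course and the same scaling. Of 2584 genes searched, those closest to Postn were Tmem47, a junction protein, and the collagens Col12a1 and Col3a1, with r of 0.939 to 0.960. Fn1 and Aebp1 had each other and Arhgap1 in common, followed by Pcolce, an enhancer of procollagen processing (r = 0.970 with Fn1), and Fstl1 (r = 0.961 with Aebp1). Sdc1 was closest to 3 fibrillar collagen genes, Col11a1, Col5a2 and Col3a1 (r of 0.963 to 0.970). Crispld2 was closest to the Wnt receptor gene Fzd2 and to Acta2 and Tagln, which encode contractile proteins of smooth muscle and myofibroblasts (r of 0.932 to 0.940). Tnc was closest to Hdlbp, Dpm2 and Ranbp3 (r of 0.934 to 0.943), Spon1 to Selenop, C1s and Maf (0.887 to 0.920), and Thbs4 to Medag, Clu and Meox2 (0.780 to 0.870).

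Of 30 other matricellular genes listed, 11 were measured, of which 5 rose, 1 fell and 5 were not called by the F test, and their median log2 change at 1 week was 1.01 against -0.13 for all probe sets. Galectin 3 (Lgals3), a lectin of macrophages and cartilage, rose by 2.53 ± 0.25 on the log2 scale at 1 week (limma adjusted p = 0.000323). Cartilage oligomeric matrix protein (Comp), a relative of Thbs4, rose by 4.19 ± 0.49 at 2 weeks (limma adjusted p = 0.00266). Galectin 1 (Lgals1) rose by 1.29 at 0.4 week, osteopontin (Spp1), a mineral-binding ligand of integrins, by 2.21 at 2 weeks and fibulin 5 (Fbln5) by 0.90 at 1 week. Sparcl1 was the 1 that fell, by 0.95 on the log2 scale at 0.4 week (limma adjusted p = 0.0311). Osteonectin (Sparc, F test adjusted p = 0.0534) and tenascin N (Tnn, 0.158) were the brightest that the F test did not call. At single weeks Sparc rose by 1.73 at 2 weeks (limma adjusted p = 0.0181) and Tnn by 2.09 at 1 week (0.0373).

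Sdc1 belongs to the surface proteoglycans. Of 10 others measured (11 listed), 8 rose, 0 fell and 2 were not called, with a median log2 change of 1.41 at 1 week. The hyaluronan receptor gene Cd44 rose by 1.45 ± 0.19 at 1 week (limma adjusted p = 0.00106), Cspg4 (NG2, of pericytes and progenitors) by 1.67 at 0.4 week, Gpc1 by 1.46 at 0.4 week and Tgfbr3 (betaglycan) by 1.24 at 4 weeks. Sdc4, a partner of integrins in focal adhesions, was at -0.19 ± 0.25 at 1 week (F test adjusted p = 0.885), and Gpc3 at 1.04 (0.0881).

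The receptors, the anchoring machinery inside the cell and the basement membrane follow, and their shares called by the F test are to be read against the 26.4% of all probe sets. Of 10 measured integrin genes (23 listed), the F test called 2. Itga2b fell by 2.68 on the log2 scale at 1 week, and Itga7 had its largest change at 4 weeks, -0.62 (limma adjusted p = 0.0842 at that week). Itga2b is a platelet gene, and 2 of the 3 measured platelet markers, Itga2b among them, fell by the F test. The beta 1 subunit gene Itgb1, which pairs with most fibronectin-binding alpha chains, missed the F test (adjusted p = 0.0532) but rose by 1.09 ± 0.28 at 1 week (limma adjusted p = 0.0135). Likewise Itgav (F test adjusted p = 0.181) rose by 1.01 at 2 weeks (limma adjusted p = 0.0383). Itga1 (F test adjusted p = 0.434) had its largest change at 2 weeks, 0.77, which was not called (limma adjusted p = 0.353). Of 12 focal adhesion genes (20 listed), Rhoa rose, by 1.95 ± 0.29 at 0.4 week (limma adjusted p = 0.000904), and 11 were not called by the F test, among them Ptk2, Src, Tns1, Lims1 and Tln1. Some of these passed at single weeks. Ptk2 rose by 1.31 (limma adjusted p = 0.0109) and Src fell by 2.1 (0.0101) at 1 week, and Tns1 fell by 0.81 at 2 weeks (0.0332). Of 9 basement membrane genes (16 listed), Lama1 fell by 0.96 on the log2 scale at 1 week, Lama5 rose by 0.96 from signals below 20 on 11 of the 18 arrays, and 7 were not called by the F test, with Lamb2, Agrn and Lamc1 among them. Agrn still rose by 1.23 at 1 week (limma adjusted p = 0.0109) and Lamb2 by 0.61 at 2 weeks (0.043).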

How the data were processed

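The authors hybridised RNA of 2 pooled rats to each Affymetrix GeneChip and computed the deposited intensity values with Microarray Suite. Each is a linear signal of a probe set, taken from its perfect match and mismatch probes, and each array's average was set to 500. The trimmed mean was 500.7 to 500.9 on the 18 arrays. Detection calls and the study's series 1 and 2 were not analysed here. Each age and time has 1 array, so p-values rest on the spread left after the age and time terms of each model. That spread may be partly technical, and the number of arrays limits the precision.

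After 59 Affymetrix control probe sets were removed, 8740 were tested on log2 after a floor of 20, which understates changes of dim genes. Genes were named through the platform annotation updated by gene identifier (7006 probe sets have 1 symbol, 308 several and 1426 none). limma 3.58.1 in R 4.3.3 was run with an intensity trend and Benjamini-Hochberg adjustment at 0.05. The tests of time used all 18 arrays in a model of week plus age, older against young rats on the 15 later arrays with week as a term, by phase, and as change from the own control. Figures were drawn with matplotlib 3.10.9.

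The genes, lists, tests and motifs were chosen with earlier results of these data known. Named were the 8 genes with every probe set, the 3 genes most correlated with each (1 symbol, mean signal of at least 200), and of each other list the 4 with the lowest F test p and the 2 brightest not called. Fbln5 and Spp1 were named after their values were seen.

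Alternatives were quantile normalization, median scaling, a floor of 1 or an added offset of 50 before log2, only probe sets averaging 200 or more, no trend, no age term, the mean of a gene's probe sets, the methods' t-test, and leaving out each age, each later time or the young 4- and 6-week arrays. The last of these was added to the tests of time and of the change from the own control after the data were seen. In a simulation that changed 200 of the 8740, 35% of 2-fold and 82% of 4-fold changes at 1 week were found, and 14% and 55% for older against young rats at 4 and 6 weeks.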

Additional observations from a re-analysis of the deposited data

Results flagged for a closer look

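The change from the own 0 time control differed between older and young rats, by limma's test of that difference, in Postn (4.63 on the log2 scale, adjusted p = 0.00105), Fn1 (2.84, adjusted p = 0.00559), Aebp1 (4.86, adjusted p = 0.000398) and Sdc1 (4.32, adjusted p = 0.000791), each with 1 control array per age. These are values of the leading probe sets. The second Sdc1 probe set, X60651mRNA_s_at, had -0.05, and the other Fn1 probe sets had -1.74 to 1.95, none of them called. Both other Aebp1 probe sets were called, at 2.91 and 2.02 (limma adjusted p = 0.0242 and 0.0410).

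In 4 genes both late young arrays were below the young control while both late older arrays were above the older control. The share of all probe sets with this pattern is not given, so the count cannot be read as particular to the members. The mean log2 change at 4 and 6 weeks was -0.91 in young and 3.76 in older rats for Postn. It was -1.14 and 1.49 for Tnc, -0.64 and 1.15 for Thbs4, and -1.75 and 1.2 for Crispld2. The difference at these 2 times alone was not tested against the controls. The Gapdh 3′ to 5′ ratio of the young arrays at these times, 3.485 and 6.565, stands beside it, and its part was not tested.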

How the results depend on the processing

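Each alternative run used a gene's leading probe set or the mean of its probe sets. Under these, no direction reversed among the 8 genes at 1 week, in the late difference between older and young rats or in the change from the own control. Of these values, calls were kept 110 times, lost 25 times and gained 8 times, and 97 stayed uncalled. Sizes moved more: the 1 week log2 change ranged from 1.43 to 3.72 in Postn, 2.72 to 5.30 in Aebp1, 1.17 to 2.88 in Tnc and 2.08 to 4.10 in Sdc1. Single other probe sets were not among the alternatives. In the main fit the change from the own control, older minus young, was negative in Sdc1 X60651mRNA_s_at (-0.05) and Fn1 X05831cds_at (-1.74), opposite to the leading ones. The number of members called varied most with the arrays left out. Leaving out each age in turn gave 0 to 7 members for the F test, 0 to 7 at 0.4 week, 0 to 8 at 1 week, 0 to 8 at 2 weeks, 0 to 7 at 4 weeks and 0 to 6 at 6 weeks. The zeros came without the adult and without the older arrays, and the highest counts without the young arrays, with equal numbers of arrays left. Shares of all probe sets called under the alternatives, here and below, are not given, so these counts cannot be read as particular to the members. Without the adult arrays 0 members were called in the late comparison of older and young rats.

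With a floor of 1, limma called 4 members at 4 weeks, 2 at 6 weeks, 2 in the late comparison (Tnc besides Crispld2) and 1 in the late minus early difference. With an offset of 50 these were 4, 2 and 2, the late minus early difference staying at 0. With a mean signal of at least 200, which tests fewer probe sets, they were 4, 4, 2 and 1, and 1 member was called over all later times. Scaling to the median left 1 member at 4 weeks, as did leaving out the young 4- and 6-week arrays. The methods' t-test was run here on 3 against 3 arrays, whereas the study's own t-tests also pooled its replicate arrays. At an unadjusted p under 0.05 it gave 3, 6, 5, 1 and 1 members at the 5 times. After Benjamini-Hochberg adjustment it gave 1 at 0.4 week and 0 at 1, 2, 4 and 6 weeks. The cause of these shifts was not tested. Arrays carry no replicate numbers to pair, and age or week stands as a term in each test except the t-test. The no-age alternative keeps week alone. Signal over background was not analysed here beyond the floor, and the older Sdc1 and Spon1 controls lay near it.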
